A study of Mus musculus with 6 samples.

Results

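The centromere and kinetochore genes of MC3T3-E1 cells were followed after inhibition of the DNA-dependent protein kinase. The set had 32 named genes, and a member was a row of the deposited gene table whose symbol equalled 1 of those names. By that rule 30 of the 23358 rows were members, 15 of the inner and 15 of the outer kinetochore. The names Ska2 and Ska3 matched no row directly. RefSeq lists Fam33a and F630043A04Rik as their older symbols, and these 2 rows are described beside the members and kept out of the counts. MC3T3-E1 is a line of pre-osteoblasts from the calvaria of C57BL/6 mice. One group had received NU7441, an inhibitor of that kinase, at 1 µM for 16 h, and the other its solvent DMSO for the same time. Both groups were grown to confluence in the same medium with serum, the labels name no genetic change, and each group had 3 sequenced samples. The design text states that triplicates from independent experiments were pooled, so p-values measure only the spread between these samples, which may be technical.

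The kinetochore is the protein assembly that ties a chromosome to the spindle in mitosis. It is built on nucleosomes that carry the histone H3 variant CENP-A, which the constitutive centromere-associated network (CCAN) recognises as the inner layer. The outer layer is the KMN network, made of the KNL1, MIS12 and NDC80 complexes, to which the SKA complex, the RZZ complex and the fibrous corona are added in mitosis. Transcripts of many of these genes accumulate in the G2 and M phases of cycling cells, whereas some others are made throughout the cycle.

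Every one of the 30 members was lower in NU7441 than in DMSO, with an adjusted p (edgeR, Benjamini-Hochberg over 13784 genes) at or below 0.05, and 0 were higher. Of all genes tested, 16.6% were called lower and 14.1% higher, or 2290 and 1941 genes, against 1919 and 2488 with upper-quartile scaling, under which 29 members were called lower. The fall was at least 2-fold for 16 members, against 1.36% of all genes tested. The median log2 fold change was -1.04 over the members and 0.01 over all genes tested. The range ran from -1.50 for Nuf2 to -0.10 for Cenpb, so that the size of the fall differed widely within the set. In each of the 30 members every NU7441 sample lay below every DMSO sample in CPM (counts scaled to library size), which was so for 22.2% of all genes tested. In bulk RNA, fewer dividing cells and less of each transcript per cell cannot be told apart.

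**Figure D1:**
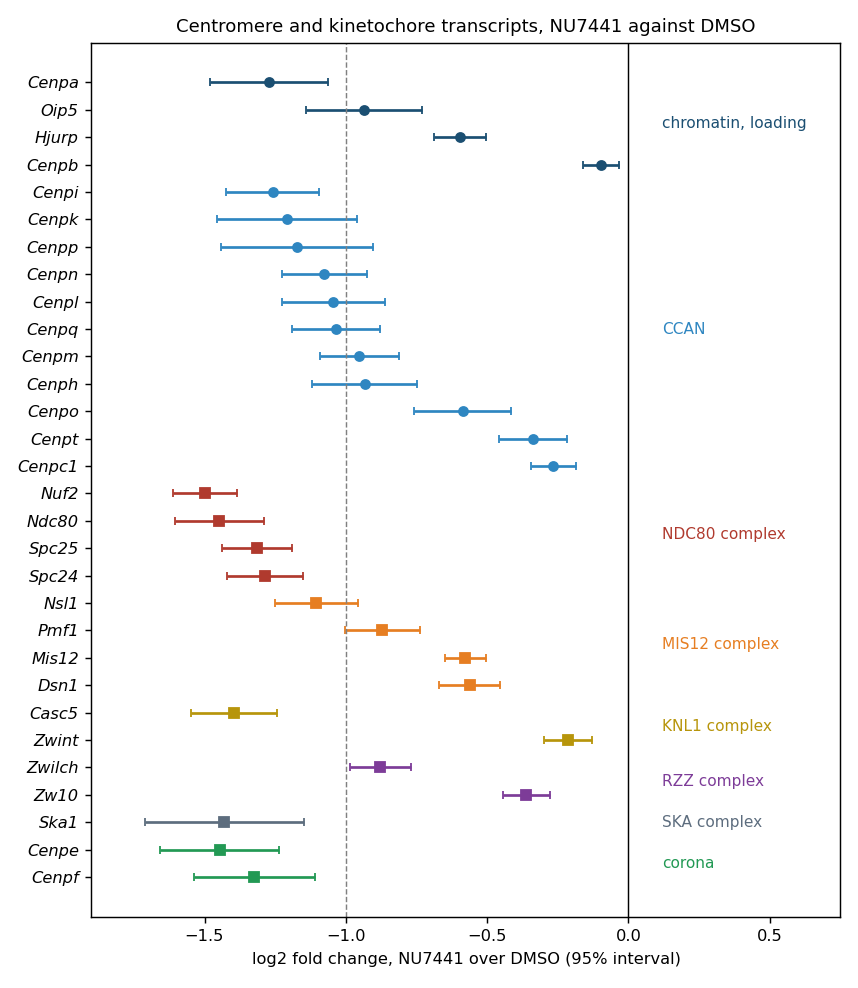
Log2 fold change of each member, NU7441 over DMSO, with bars for the 95% interval; circles are inner and squares outer kinetochore genes, coloured by complex, and the dashed line marks a 2-fold fall. All 30 points lie left of 0, from -1.50 for Nuf2 to -0.10 for Cenpb.

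Promoter sequence was examined because the members moved together. Late cell-cycle promoters are known for CHR elements, bound by the DREAM and MuvB complexes, and for CCAAT boxes, bound by NF-Y, and earlier ones for E2F sites. RefSeq promoters (GRCm38.p6, the mm10 assembly; 250 bases before to 50 after the gene start) were matched for 26 members, with Casc5 matched as Knl1. Spc24, Nsl1, Zwilch and Ska1 had no entry in that table. The letters searched for CHR were TTTGAA, or with a central CpG the form TTCGAA. Boxes of NF-Y were searched as CCAAT. For E2F the letters were TTGGCGC, the form TTCCCGC, the form TTGCCGC and the form TTCGCGC. Both strands were read, so TTCAAA counts as a CHR element, and no base fell in more than 1 kind of motif. A CHR element whose first base lay within 50 bases of the start was found in 8 of the 26 members (30.8%), against 5.31% of 32851 RefSeq mouse promoters. Windows of 30 bases at these elements are shown from the largest fall to the smallest, on the gene's own strand and with the element in capitals.
Ndc80 (chr17:71526811-71526840, minus strand): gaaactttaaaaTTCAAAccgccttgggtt
Casc5 (chr2:119047138-119047167, plus strand): agggcggttagaTTTGAAtacttcagggac
Cenpf (chr1:189688067-189688096, minus strand): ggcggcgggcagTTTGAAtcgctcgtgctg
Spc25 (chr2:69206172-69206201, minus strand): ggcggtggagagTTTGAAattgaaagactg
Cenpa (chr5:30666890-30666919, plus strand): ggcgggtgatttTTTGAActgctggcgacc
Cenpn (chr8:116921719-116921748, plus strand): gccattggcggcTTCAAAagcacctcggcg
Oip5 (chr2:119618456-119618485, minus strand): aagaggcgcgcgcTTCAAAgaaatatggcg
Hjurp (chr1:88277543-88277572, minus strand): tgcgtaaatactTTTGAAagaccctattag

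Over the whole promoter window a CHR element was present in 12 of 26 members (46.2%), against 19.2% of all promoters. A CCAAT box was present in 17 (65.4%, against 37.4%) and an E2F motif in 10 (38.5%, against 9.57%). A member counted when any of its promoters held the motif, whereas the share over all is per promoter. Cenpk had 3 promoters, and its E2F motif lay in 1 of them. The E2F motif was in 8 of 15 inner and 2 of 11 outer members, and the CHR element in 6 of 15 and 6 of 11. The median log2 fold change was -1.06 for the 12 members with a CHR element and -0.76 for the 14 without, while for E2F it was -0.76 with and -1.22 without. For CCAAT it was -1.03 with and -0.59 without over all 26 members, but -1.09 with and -1.40 without among the outer ones. The ranges overlapped in every split, no test was made, and Nuf2, with the largest fall, held none of the 3 motifs. The 150 bases before the start are given for the inner members with the largest and the smallest fall, with motifs in capitals. That of Cenpa (chr5:30666736-30666885, plus strand) carries a pair of CCAAT boxes in reverse, and that of Cenpb (chr2:131180068-131180217, minus strand) a pair of E2F motifs.
Cenpa: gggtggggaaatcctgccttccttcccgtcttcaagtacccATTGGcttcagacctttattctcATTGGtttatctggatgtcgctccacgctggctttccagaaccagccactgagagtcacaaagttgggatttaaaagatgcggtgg
Cenpb: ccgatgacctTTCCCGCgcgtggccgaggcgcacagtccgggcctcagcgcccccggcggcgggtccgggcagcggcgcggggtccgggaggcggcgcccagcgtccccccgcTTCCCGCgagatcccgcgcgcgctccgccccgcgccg

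In centromeric chromatin and its loading factors the log2 fold changes ran from -1.27 to -0.10. Cenpa, which encodes the centromeric histone itself (mm10 chr5:30666902-30674826), had 14.5, 9.59 and 10.9 CPM in the NU7441 samples, against 30.7, 26.9 and 26.9 CPM in the DMSO samples. No NU7441 sample reached the lowest DMSO sample, and NU7441 replicate 1 stood above the other two. Its log2 fold change of -1.27 ± 0.11 was well beyond that spread (SE; edgeR adjusted p = 4.1e-07). Hjurp, the chaperone that deposits CENP-A, had 24.3, 27.3 and 26.9 CPM in NU7441, against 38.1, 40.6 and 40.1 CPM in DMSO, a log2 fold change of -0.60 ± 0.05. Oip5, a subunit of the Mis18 complex that licenses that deposition, had 3.02, 3.16 and 2.91 CPM in NU7441, against 5.87, 5.73 and 5.80 CPM in DMSO (log2 fold change -0.94 ± 0.11). The transcripts of the histone and of its loaders thus fell by different amounts, to 41.4% of the DMSO level for Cenpa, 52.3% for Oip5 and 66.1% for Hjurp.

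Cenpb, whose product binds the CENP-B box of satellite DNA, was the member that changed least. It had 203, 195 and 192 CPM in the NU7441 samples, against 216, 211 and 204 CPM in the DMSO samples (mm10 chr2:131177289-131180012). The groups did not overlap, but by a narrow gap. The log2 fold change was -0.10 ± 0.03 (edgeR adjusted p = 0.038), and the call was lost with upper-quartile scaling (adjusted p = 0.12) and without any 1 of 4 libraries. The adjusted p was 0.16 without DMSO replicate 1, 0.13 without DMSO replicate 2, 0.12 without NU7441 replicate 2 and 0.18 without NU7441 replicate 3, and over all settings tried it lay between 0.0025 and 0.18.

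The CCAN links CENP-A nucleosomes to the outer kinetochore, and all 11 of its members were lower. The median change was -1.03 on the log2 scale, and 6 members fell at least 2-fold. Within this layer Cenpo (-0.59), Cenpt (-0.34) and Cenpc1 (-0.27) fell least, and the other genes lay between -1.26 and -0.93. Cenpi and Cenpk, whose products work with those of Cenph and Cenpm in the network, had the largest falls. Cenpi had 8.67, 8.05 and 7.66 CPM in NU7441, against 21.7, 19.5 and 17.3 CPM in DMSO (log2 fold change -1.26 ± 0.08, edgeR adjusted p = 2.9e-08). Cenpk had 2.60, 3.60 and 3.56 CPM in NU7441, against 6.87, 8.13 and 7.58 CPM in DMSO (log2 fold change -1.21 ± 0.13). For Cenpk, unlike Cenpi, replicate 1 was the lowest sample of each group. The log2 fold changes were -0.95 ± 0.07 for Cenpm and -0.93 ± 0.09 for Cenph, so the 4 genes of this subcomplex lay between 41.8% and 52.4% of the DMSO level.

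Cenpn and Cenpl encode a pair of partners, of which CENP-N contacts the CENP-A nucleosome. They fell by nearly the same amount, with log2 fold changes of -1.08 ± 0.08 and -1.04 ± 0.09. Cenpn averaged 6.43 ± 0.392 CPM in NU7441 and 13.6 ± 0.774 CPM in DMSO, and Cenpl 6.31 ± 0.854 CPM in NU7441 and 13.0 ± 0.812 CPM in DMSO (SD, n = 3 each). Cenpo, Cenpp and Cenpq encode subunits of a further subcomplex. Cenpp had 3.82, 3.16 and 2.38 CPM in NU7441, against 7.23, 7.04 and 6.85 CPM in DMSO (log2 fold change -1.17 ± 0.14). Cenpq had 6.38, 5.73 and 5.94 CPM in NU7441, against 13.1, 11.7 and 12.1 CPM in DMSO (-1.03 ± 0.08). Cenpo had 6.03, 6.43 and 5.75 CPM in NU7441, against 8.67, 8.85 and 9.78 CPM in DMSO (-0.59 ± 0.09). The groups were separate for the 3 genes, and Cenpo fell less than Cenpp and Cenpq.

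Cenpc1 and Cenpt fell least in the CCAN. Their products are the scaffolds that carry the outer kinetochore, CENP-C through the MIS12 complex and CENP-T through direct binding of NDC80. Cenpc1 had 33.5, 33.3 and 31.99 CPM in NU7441, against 41.5, 39.3 and 38.0 CPM in DMSO. Cenpt had 15.2, 14.3 and 15.5 CPM in NU7441, against 20.3, 18.7 and 17.8 CPM in DMSO. The groups were separate for both genes, at log2 fold changes of -0.27 ± 0.04 (edgeR adjusted p = 0.00016) and -0.34 ± 0.06 (edgeR adjusted p = 0.0007), or 83.2% and 79.1% of the DMSO level.

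In the outer kinetochore the NDC80 complex, the main microtubule-binding unit, fell as a block. Nuf2 (mm10 chr1:169497934-169531464) had 15.0, 13.5 and 12.9 CPM in NU7441, against 41.2, 39.4 and 36.8 CPM in DMSO, the largest fall of any member (log2 fold change -1.50 ± 0.06, edgeR adjusted p = 1.7e-10). Ndc80, its partner at the microtubule end, had 13.4, 11.1 and 10.4 CPM in NU7441, against 34.7, 30.9 and 29.7 CPM in DMSO (log2 fold change -1.45 ± 0.08). Spc24 and Spc25 encode the dimer at the other end, which docks on the inner layers. Spc25 had 10.1, 10.2 and 9.69 CPM in NU7441, against 27.1, 24.1 and 23.6 CPM in DMSO (log2 fold change -1.31 ± 0.06). Spc24 had 6.80, 6.54 and 6.17 CPM in NU7441, against 16.3, 15.8 and 15.4 CPM in DMSO (log2 fold change -1.29 ± 0.07). All 4 subunits thus lay between 35.4% and 41.0% of the DMSO level.

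Per length the 4 subunits of the NDC80 complex were also close to each other, as measured in the deposited RPKM, which divides a count by gene length and library total. Nuf2 averaged 4.27 ± 0.399 RPKM in NU7441 and 12.3 ± 0.661 RPKM in DMSO, and Spc24, the lowest of the 4, 3.57 ± 0.219 RPKM in NU7441 and 8.90 ± 0.246 RPKM in DMSO (SD, n = 3 each). The ratio of Nuf2 to Ndc80 in RPKM was 1.09 ± 0.0598 in NU7441 and 1.13 ± 0.0392 in DMSO. That of Spc24 to Ndc80 was 0.919 ± 0.0798 in NU7441 and 0.817 ± 0.0418 in DMSO. For both ratios the groups overlapped.

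The MIS12 complex, which joins the inner layer to NDC80 and KNL1, fell less evenly. Its 4 members were all lower, with log2 fold changes of -1.10 ± 0.07 for Nsl1, -0.87 ± 0.07 for Pmf1, -0.58 ± 0.04 for Mis12 and -0.56 ± 0.05 for Dsn1. Mis12 had 31.9, 32.4 and 33.5 CPM in NU7441, against 49.3, 49.8 and 47.0 CPM in DMSO. Nsl1 had 9.01, 9.70 and 8.16 CPM in NU7441, against 18.5, 21.0 and 18.4 CPM in DMSO. Pmf1 had 11.1, 9.59 and 9.46 CPM in NU7441, against 18.7, 18.2 and 18.2 CPM in DMSO. Neither these genes nor Dsn1 overlapped between the groups. The 95% intervals for Nsl1 (-1.25 to -0.96) and Mis12 (-0.65 to -0.50) did not overlap.

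The 2 subunits of the KNL1 complex differed most. Casc5, the mouse gene for KNL1, the scaffold that recruits checkpoint proteins, had 17.1, 14.8 and 14.0 CPM in NU7441, against 44.3, 41.1 and 35.8 CPM in DMSO (log2 fold change -1.40 ± 0.08, edgeR adjusted p = 4.3e-09). Zwint, which encodes its binding partner, had 53.6, 52.7 and 54.2 CPM in NU7441, against 66.5, 60.8 and 59.0 CPM in DMSO (log2 fold change -0.21 ± 0.04, edgeR adjusted p = 0.0016). The level per length of Zwint was 8.58 ± 0.911 times that of Casc5 in NU7441 and 3.76 ± 0.219 times in DMSO, without overlap. The log2 of that ratio differed by 1.19 between the groups (exact permutation test, two-sided p = 0.1, the smallest that 3 against 3 samples allow). This ratio and that of Zw10 to Zwilch were the 2 tested, and the Benjamini-Hochberg adjusted p was 0.1 for each. The fold changes within each pair already differed, so these tests add no separate support. The ratios to Ndc80 were not tested.

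The RZZ complex brings dynein and the MAD proteins to unattached kinetochores. Zwilch fell to 14.3, 13.3 and 13.6 CPM in NU7441, against 25.6, 26.4 and 23.8 CPM in DMSO (log2 fold change -0.88 ± 0.05, edgeR adjusted p = 1.6e-08). Zw10, whose product also takes part in membrane traffic outside mitosis, had 20.5, 21.5 and 20.5 CPM in NU7441, against 26.6, 26.8 and 27.0 CPM in DMSO (log2 fold change -0.36 ± 0.04). Kntc1, the gene of the remaining subunit, was outside the members and fell more, by 1.24 ± 0.05 on the log2 scale. The level per length of Zw10 was 1.46 ± 0.0866 times that of Zwilch in NU7441 and 1.02 ± 0.0605 times in DMSO (exact permutation test of the log2 ratio, two-sided p = 0.1, n = 3 each).

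The SKA complex tracks microtubule ends together with NDC80. Ska1 had 2.67, 2.50 and 1.92 CPM in NU7441, against 6.94, 6.83 and 5.43 CPM in DMSO (log2 fold change -1.43 ± 0.14, edgeR adjusted p = 2.6e-06). As few as 100 counts lay behind it in NU7441 replicate 3, and deposited counts were all even. F630043A04Rik, listed as the older symbol of Ska3, had 6.68, 7.06 and 6.78 CPM in NU7441, against 14.4, 12.7 and 12.8 CPM in DMSO (-0.96 ± 0.08, edgeR adjusted p = 2.1e-07). Fam33a, that of Ska2, had 21.0, 18.5 and 19.2 CPM in NU7441, against 27.5, 26.9 and 24.7 CPM in DMSO (-0.43 ± 0.06, edgeR adjusted p = 3.7e-05). As in the KNL1 and RZZ complexes, the subunits of SKA differed in the size of their fall.

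Cenpe and Cenpf encode the large coiled-coil proteins of the corona, a kinesin motor and a farnesylated microtubule binder. Cenpe had 39.8, 28.5 and 29.4 CPM in NU7441, against 102, 84.9 and 79.2 CPM in DMSO (log2 fold change -1.45 ± 0.11, edgeR adjusted p = 1e-07). Cenpf had 56.6, 42.4 and 40.7 CPM in NU7441, against 137, 107 and 105 CPM in DMSO (log2 fold change -1.32 ± 0.11, edgeR adjusted p = 3.4e-07). Replicate 1 was the highest of its group for both genes in both groups, which gave coefficients of variation of 19.3% and 18.8% in NU7441 and 13.5% and 15.2% in DMSO.

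That library pattern ran through the set. NU7441 replicate 1 was the highest NU7441 sample for 19 of the 30 members, and DMSO replicate 1 the highest DMSO sample for 21. Relative to the DMSO mean of each gene, the median member stood at -0.92, -0.99 and -1.07 on the log2 scale in NU7441 replicates 1, 2 and 3, against 0.06, 0.00 and -0.06 in the DMSO replicates. The summed RPKM of 22 genes of G2 and mitosis moved in the same way, at 152, 124 and 117 in NU7441, against 388, 344 and 341 in DMSO. Its part in the spread of the members was not tested. Zwint, Mis12 and Zw10, whose falls were small, had coefficients of variation of 1.44%, 2.55% and 2.93% in NU7441. A small fall did not always go with little variation. Hjurp (-0.60) had 6.25% and Spc25 (-1.31) 2.79% in NU7441, and Zwint had 6.35% in DMSO.

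**Figure D2:**
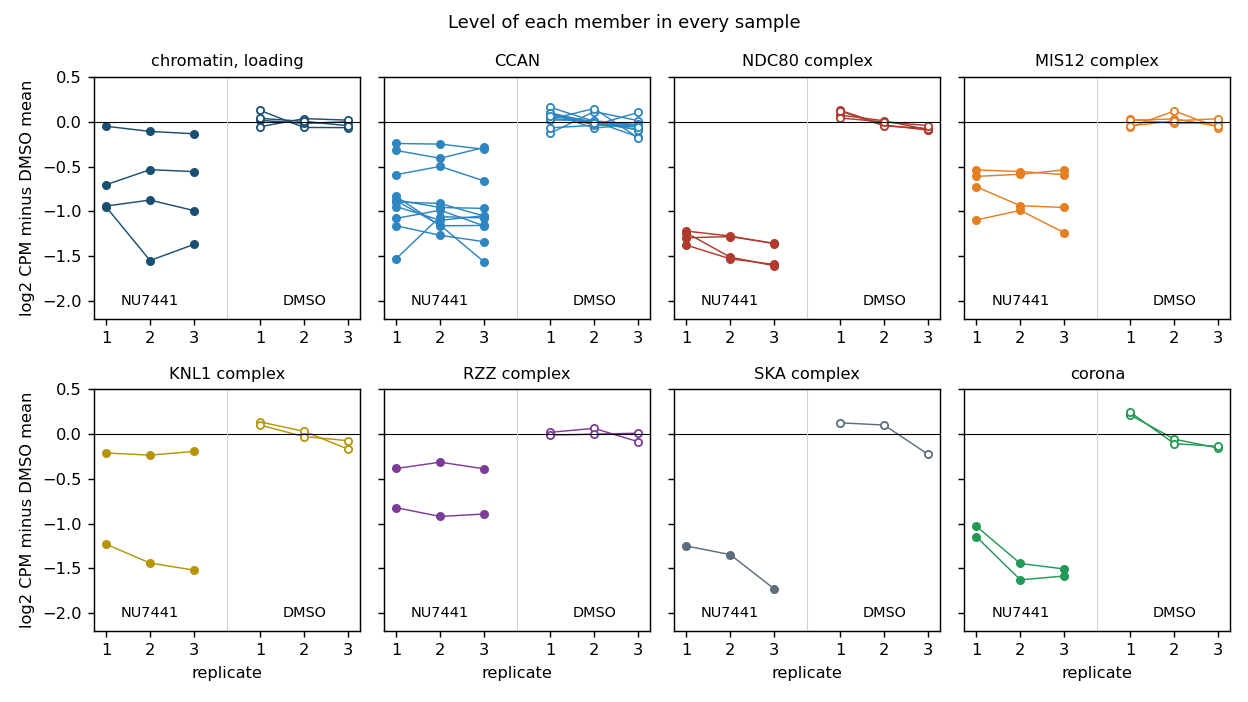
Log2 CPM of each member minus its DMSO mean, in the 3 NU7441 samples (filled, left) and the 3 DMSO samples (open, right), by complex; a line joins the values of 1 gene and marks no order of replicates. The NU7441 points of each gene lie below its own DMSO points, and the corona genes stand highest in replicate 1 of both groups.

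Set side by side, outer members fell by a median of -1.29 on the log2 scale and inner members by -0.95. At least 2-fold falls were found for 9 of 15 outer and 7 of 15 inner members. The ranges overlapped almost completely, from -1.50 to -0.21 for outer and from -1.27 to -0.10 for inner genes, and no test was made across genes, which are not replicates. The difference between the medians of -0.33 rested on a few genes: it was -0.15 with the older symbols of Ska2 and Ska3 counted as outer members, a setting added after the data were seen. Without DMSO replicate 1 it was -0.25. Within the outer layer the NDC80 and corona members and Ska1, at log2 fold changes of -1.29 or lower, had larger falls than every member of the MIS12 and RZZ complexes. The order did not extend to whole complexes, since the older symbols of Ska3 (-0.96) and Ska2 (-0.43) fell less than Nsl1, and Kntc1 of RZZ fell more.

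The summed level per length also fell more for the outer members, but the inner sum leaned on Cenpb, the member that changed least. The inner members summed to 104, 95.8 and 94.5 RPKM in NU7441, against 147, 140 and 137 RPKM in DMSO. The outer members summed to 76.4, 69.6 and 68.5 RPKM in NU7441, against 145, 135 and 131 RPKM in DMSO. The outer sum was therefore 0.728 ± 0.00345 of the inner sum in NU7441 and 0.969 ± 0.0141 in DMSO (SD, n = 3 each). Cenpb made up 54.6% of the inner sum in NU7441 and 41.4% in DMSO. Zwint made up 20.8% of the outer sum in NU7441 and 12.8% in DMSO. Both shares were larger in NU7441, so Cenpb drew the ratio down there and Zwint drew it up. Without these 2 genes the ratio was 1.27 ± 0.0113 in NU7441 and 1.44 ± 0.00885 in DMSO, which does not show the part of Cenpb alone. The mean CCAN sum, which holds no Cenpb, was 0.568 of its DMSO level, against 0.522 for the outer and 0.695 for the whole inner sum.

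In DMSO the members spanned levels from 58.5 ± 1.53 RPKM for Cenpb, through 17.6 ± 1.11 for Zwint and 16.0 ± 1.27 for Cenpa, to 1.59 ± 0.113 for Cenpo. Zwint was higher than Cenpa in each DMSO library, although their values overlapped across libraries. In NU7441 they stood farther apart, at 14.8 ± 0.333 and 6.48 ± 1.53 RPKM. Cenpa moved to rank 6 in NU7441 from rank 3 in DMSO, and Cenpc1 to rank 4 from rank 9. Across the 30 genes the fold change followed neither level nor length, with Spearman's rho of 0.13 with mean RPKM in DMSO and 0.01 with the deposited gene length. These points share the same 6 libraries and are no independent replicates.

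**Figure D3:**
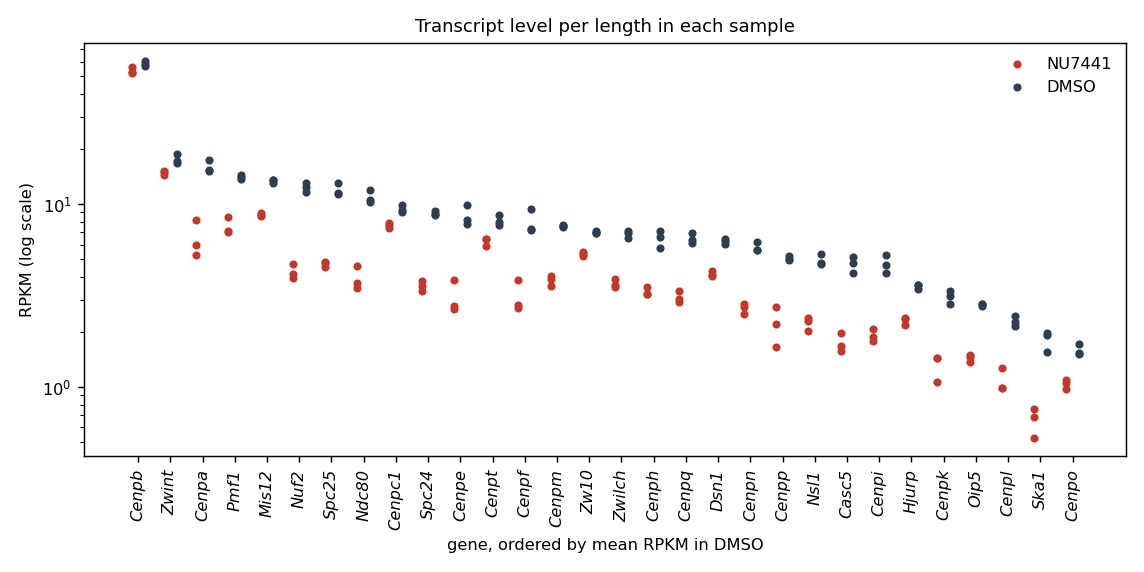
Deposited RPKM of each member on a log axis, with 1 point per sample, NU7441 left of DMSO for each gene; genes are ordered by mean RPKM in DMSO. Cenpb stands apart at 58.5 RPKM in DMSO, and the gap between the groups is narrow for Cenpb and Zwint and wide for Nuf2, Ndc80 and Cenpe.

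Some members share exon positions with a neighbour, and the strand setting of the counting step was not stated. In the GENCODE M21 annotation of mm10, 29.4% of the exonic bases of Cenpo lay in exons of Adcy3 or Ptrhd1, 27.5% of those of Cenpp in exons of Ippk and 15.9% of those of Oip5 in exons of Nusap1, all on the opposite strand. Nusap1 itself fell by 1.46 ± 0.08 on the log2 scale, whereas Adcy3 (-0.03 ± 0.04, edgeR adjusted p = 0.55) and Ippk (0.10 ± 0.06, edgeR adjusted p = 0.22) did not pass the test. The deposited span of Cenpp also encloses Aspn, Ogn, Omd and Ecm2, which all rose, with Aspn at 627 ± 19.0 CPM in NU7441 and 400 ± 7.29 CPM in DMSO. The values of Cenpo, Cenpp and Oip5 are uncertain to that extent. Smaller shares, also on the opposite strand, were found for Zwilch (8.59%, with Lctl), Mis12 (7.69%, with Derl2) and Cenpq (4.89%, with Mut). No other member shared more than 0.41%. The deposited span of Hjurp encloses the row A730008H23Rik, at 1.56 CPM in NU7441 and 1.81 CPM in DMSO (log2 fold change -0.23 ± 0.18, edgeR adjusted p = 0.39). Hjurp itself averaged 26.2 CPM in NU7441 and 39.6 CPM in DMSO. Its deposited length of 8439 bases exceeds its 4892 exonic bases in GENCODE M21.

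Lists of further genes of the pathway were read beside the members. Of 11 tested further kinetochore subunits 10 were lower and 0 higher, and their median stood at -1.11 on the log2 scale. Kntc1, the checkpoint adaptor Ccdc99 (-1.24 ± 0.08) and the microtubule depolymerase Kif2c (-1.38 ± 0.09) had the lowest adjusted p. The exception, named after its value was seen, was Itgb3bp, the gene for CENP-R (-0.13 ± 0.09, edgeR adjusted p = 0.31). All 6 chromosomal passenger and shugoshin genes were at least 2-fold lower, with a median of -1.32. Among them were Aurkb (-1.57 ± 0.06), the kinase that corrects faulty attachments, and its scaffold and targeting subunits Incenp (-1.22 ± 0.05) and Birc5 (-1.34 ± 0.05). Of 8 spindle checkpoint genes 7 passed as lower and 0 as higher, and the median gene stood at 49.8% of its DMSO level. The kinases Bub1 (-1.49 ± 0.07) and Ttk (-1.25 ± 0.07) and the checkpoint effector Mad2l1 (-0.89 ± 0.05) had the lowest adjusted p of these, and Mad2l1bp (-0.17 ± 0.07, edgeR adjusted p = 0.083), also named after its value was seen, did not pass.

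The lists of the cell cycle gave the frame for these values. All 22 genes of the G2 and mitosis list were lower. Their log2 fold changes had a median of -1.42 and a range of -1.66 to -1.10, and Bub1 stands in this list too. The end at -1.10 was set by Mybl2 alone, and the next smallest fall was that of Foxm1 (-1.19). All 26 listed genes of the G1/S transition and of DNA replication were lower as well (median -0.90, range -1.31 to -0.29). The NDC80 and corona genes, Ska1 and Casc5 (-1.50 to -1.29) lay within the range of the first list. So did the inner genes Cenpa, Cenpi and Cenpk (-1.27 to -1.21). Cenpp (-1.17) and Nsl1 (-1.10) lay within it only because of Mybl2. Zw10, Cenpt, Cenpc1, Zwint and Cenpb (-0.36 to -0.10) lay farthest outside it. The ranges of the 2 lists overlap, and that of the G1/S list held, among others, Cenpk, Cenpp, Nsl1, Zw10 and, near its end, Cenpt. No gene set test was made, and nothing is called particular to the kinetochore from these counts.

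**Figure D4:**
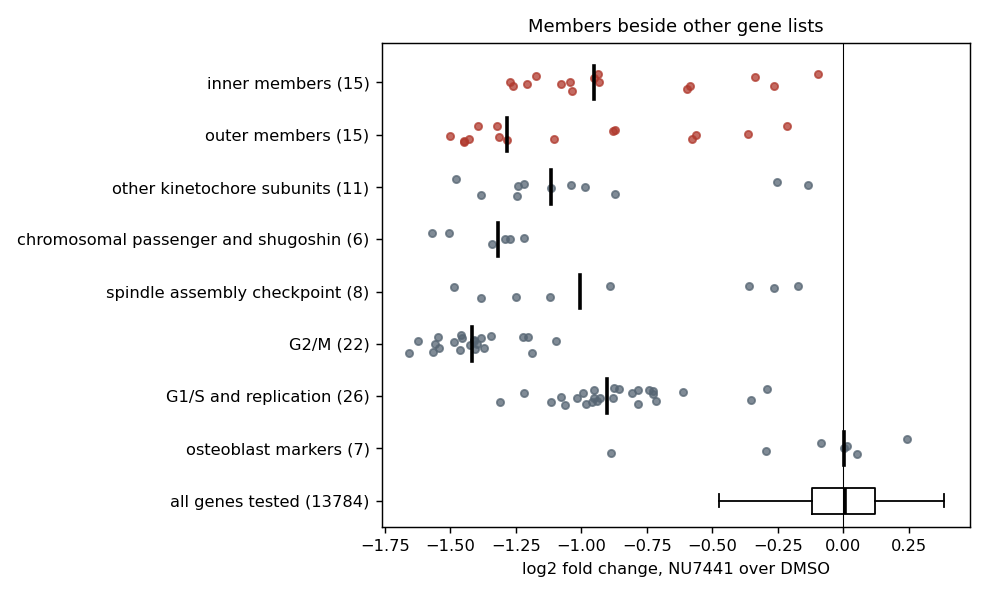
Log2 fold change, NU7441 over DMSO, of the inner and outer members and of other lists, with 1 point per tested gene and a bar at the median; the box over all genes tested spans the quartiles and its whiskers the central 90%. The members' medians of -0.95 and -1.29 lie beside -1.42 for G2/M and -0.90 for G1/S, all genes tested centre on 0, and the 7 osteoblast markers run from -0.89 to 0.25.

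The libraries held between 47312968 and 71292628 gene counts, and totals did not separate the groups (exact permutation test, two-sided p = 0.7, n = 3 each). The osteoblast markers Runx2, Sp7, Alpl, Col1a1, Col1a2, Spp1 and Ibsp were detected and tested, and moved both ways. Ibsp (-0.89) and Alpl (-0.29) were called lower and Spp1 (0.25) and Col1a2 (0.05) higher on the log2 scale, and 3 did not pass, while Bglap was near 0 at 0.15 CPM in NU7441 and 0.12 CPM in DMSO. Markers of other cell types were low in sum. Among them the cartilage gene Col2a1 was detected, at 9.94 CPM in NU7441 and 8.49 CPM in DMSO. It was called higher (log2 fold change 0.23, edgeR adjusted p = 0.046). The summed RPKM of 5 haematopoietic markers lay between 4.25 and 4.81 in NU7441 and between 4.93 and 5.004 in DMSO, with 2 of them at 0 in all samples. The sums for 5 markers each of adipocytes, skeletal muscle, cartilage and endothelium did not exceed 2.22 RPKM in any sample.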

How the data were processed

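Total RNA of 6 samples was sequenced from libraries made with an Illumina mRNA kit, per the labels' protocols. Demultiplexing software (bcl2fastq), an aligner (TopHat2 2.0.6), a read counter (HTSeq) and the mm10 build are listed, per the submitters' processing notes, without settings; the strand setting is not given in these sources. The authors deposited a count per gene and an RPKM value (a count divided by the deposited gene length and by 1 total per sample), per the file headers. No deposited count was odd; counting both mates of a pair would give this, and halved counts were tried.

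In R 4.3.3, edgeR 4.0.16 was run with filterByExpr at its defaults (minimum count 10, total 15), TMM factors and a quasi-likelihood F-test. Group was the only term, and a call needed a Benjamini-Hochberg adjusted p of at most 0.05 over 13784 genes. The SE is the log2 fold change divided by the square root of F. CPM values use the scaled library sizes. All 30 members passed the filter. The fit was also run on simulated counts with far fewer changed genes than were called here, so that run is no support for these calls. DESeq2 1.42.0 and the other alternatives are given in the closing section. All members were named, and at most 3 called genes of each other list, by lowest adjusted p. Members and lists were chosen with earlier results of these data known.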

Additional observations from a re-analysis of the deposited data

How the results depend on the processing

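The members' fold changes were recomputed under 15 alternatives: other scalings (RLE, upper quartile, library size only), DESeq2, no filter on low counts, halved counts, no Rn45s, a robust fit, a replicate block and each library left out. Of 450 values, 445 kept their direction and their side of the threshold, 0 changed sign, and 5, all of Cenpb, lost the call; 1 of these was upper-quartile scaling and the other 4 left out a library. The number of members called lower was 29 with upper-quartile scaling and between 29 and 30 with a library left out, and the number at least 2-fold lower between 14 and 17. With the same libraries left out, the median log2 fold change lay between -1.07 and -0.99 over all members, and the difference between the outer and inner medians between -0.34 and -0.25. With the older symbols of Ska2 and Ska3 added, a setting chosen after seeing the data, 32 were lower, the outer median was -1.10 and that difference -0.15, by construction because 2 genes with smaller falls were added. Over all genes tested, calls lower and higher were 2290 and 1941 with TMM, 1919 and 2488 with upper-quartile scaling and 2569 and 1553 with library size only; the cause was not tested. Samples with the same number correlated at 0.13, 0.09 and 0.05 in their deviations from the group means, not all above 0.1, so they were not treated as pairs, although each correlated best with its own number. With the replicate block 30 members were called lower, with a median of -1.04, and 2703 genes were called lower and 2417 higher. Ska1, Cenpp, Cenpk and Oip5 had the fewest counts, from 100 to 544 per sample.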
